A study of Anguilla anguilla with 6 samples.

Results

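Regulators of maternal mRNA translation are the RNA-binding proteins, poly(A)-tail readers and deadenylases that decide when an egg uses its stored transcripts. They were examined in ovaries of the European eel (Anguilla anguilla). A gene model of the deposited table was included when its protein description named a cytoplasmic polyadenylation element-binding protein, a Pumilio, ELAV-like, Nanos, Y-box, zygote arrest or deleted-in-azoospermia protein, a polyadenylate-binding protein or a CCR4-NOT subunit. Models named zar1 or btg4 were to be added, together with any description holding the letters "poly(a)". These criteria found 115 of 45974 gene models, under 43 names. The term "poly(a)" and the name btg4 matched 0 models. The descriptions in the table write such proteins without the bracketed letter, so several poly(A) enzymes lie outside the 115.

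The samples were ovaries of 6 farmed eels that had received 4 weekly gonadotropin injections. By the labels 4 of them responded and 2 did not, and all 6 had been injected, so no untreated ovary enters the comparison. The labels give neither the criterion for a response nor the age or ovarian stage of an animal, and each library was made from pooled pieces of 1 animal's gonad. Expression was read from the authors' deposited table as a mean scaled count (a read count divided by the library's size factor) per group. Values per library, and so depth and the spread between animals, were not analysed here. The group means therefore carry no SD, and the p-values are those of the authors' DESeq comparison. Each log2 gives the responder mean over the non-responder mean.

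Fish oocytes, like those of frogs and mammals, store large amounts of mRNA during growth and silence transcription late in it. What happens to a stored message then depends largely on its poly(A) tail. CPEB1 and its partners keep tails short and messages masked until maturation and then lengthen them, PABPs bind the tail and aid translation, and the CCR4-NOT complex shortens the tail and leads to decay. ZAR1, Y-box proteins and DAZL package or activate maternal messages in oocytes, as shown in mice, frogs and fish.

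ZAR1, CPEB1, NANOS3, DAZL and YBX2 were among the 12 regulators with a mean of at least 1000 scaled counts. By contrast, 14 of 18 CUGBP Elav-like models, none of them matched to CELF1, were listed at 0 in both groups, against 19.4% of all models. No regulator passed the authors' adjusted p under 0.05 in the DESeq comparison. Of the 94 models with a p, 0 were called, where the background was 0.183% of all models with a p, made up of 0.121% higher and 0.062% lower in responders. At an adjusted p under 0.1 the count was also 0, against a background of 0.259%. An unadjusted p under 0.05 was given to 6 of the 94, each with the lower mean in responders, against 3.67% of all models with a p. The 6 include pairs of models under the names ELAVL2 and CNOT3, and whether such pairs are pieces of the same transcript was not tested. Of the 61 models with a mean of at least 5 scaled counts, 46 lay below a ratio of 1 and 15 above it, and their median log2 was -0.25, the middle 50% running between -0.55 and -0.01. With group means rescaled to equal sums, 37 lay below and 24 above, and the median log2 was -0.14, while 38.9% of all models with that mean lay below. Over all 23266 models with that mean, 49.4% lay below 1 and the median log2 was 0.01. The filter on the mean left out 21 regulators with a mean of 0 and 33 with lower means, so these counts do not describe all 115. Of the 115, 18.3% had a mean of 0 and 53.0% a mean of at least 5, against 19.4% and 50.6% of all models.

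The levels spanned a wide range. Averaged over the 6 libraries, 12 regulators (10.4%) had 1000 scaled counts or more, against 5.26% of all models. Levels between genes were compared per kilobase of gene model. The ZAR1 model g14809 was the most abundant of the 12, with 9532 scaled counts per kilobase in responders and 18374 in non-responders. The other ZAR1 model, g19436, followed with 5202 and 6442 per kilobase in responders and non-responders. NANOS3 (g28001) had 1959 per kilobase in responders against 2453 in non-responders. CPEB1 (g6198) had 1922 per kilobase in responders against 2516 in non-responders. The order of NANOS3 and CPEB1 turned between the groups, but their means were close in both and carry no SD. The lowest of the 12 per kilobase was CNOT10 (g6694), at 325 in responders and 439 in non-responders.

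**Figure D1:**
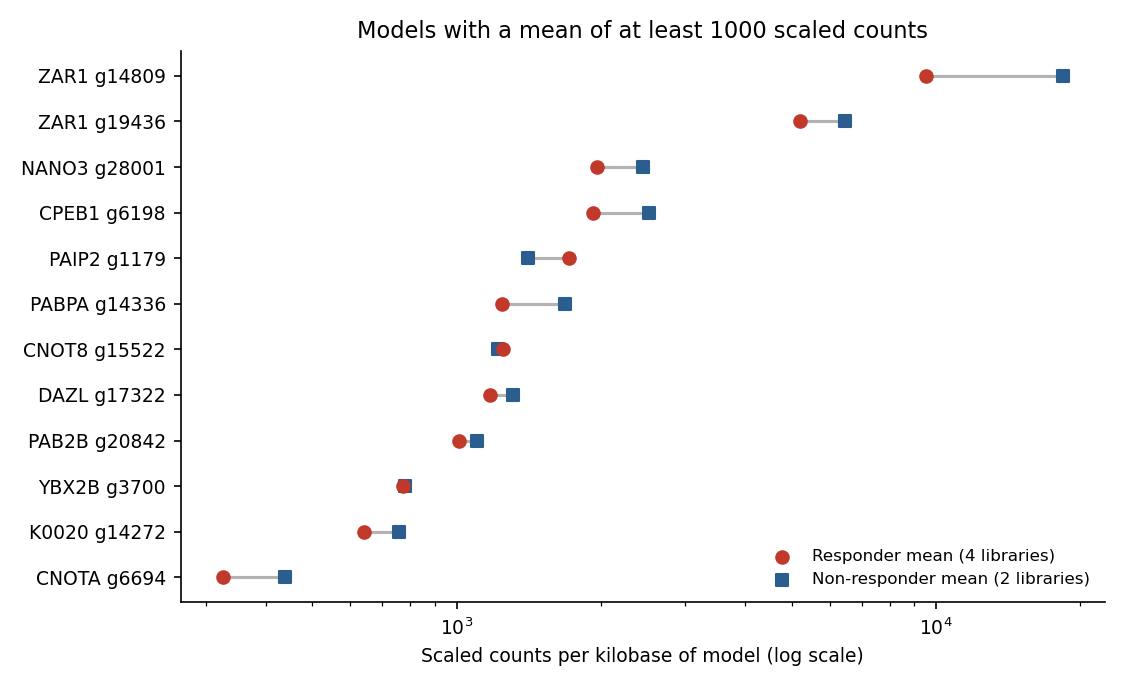
Scaled counts per kilobase of gene model (log axis) for the 12 regulators with a mean of at least 1000 scaled counts, as responder means (red circles, 4 libraries) and non-responder means (blue squares, 2 libraries), with no error bars because values per library were not analysed. ZAR1 g14809 had 9532 per kilobase in responders and 18374 in non-responders, and only PAIP2 and CNOT8 had the higher mean in responders.

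ZAR1, an oocyte RNA-binding protein that represses translation of maternal messages in fish and frogs and organises their storage in mammals, was represented by both of the most abundant models. Model g14809, best matched to the fugu protein with a similarity of 0.621, had 11238 scaled counts in responders against 21663 in non-responders by the authors' deposited table (a log2 of -0.95, p = 0.0021, adjusted p = 0.347). It ranked 69th by mean among the 45974 models. Model g19436, best matched to the Xenopus laevis protein with a similarity of 0.548, had 6971 scaled counts in responders against 8633 in non-responders by the authors' deposited table (a log2 of -0.31, adjusted p = 1). Both means were lower in responders, and neither difference passed over all genes tested. Per kilobase, g14809 was 1.83 times g19436 in responders and 2.85 times in non-responders. The pair made up 31.6% of the summed responder means of all 115 models and 39.9% of the summed non-responder means. The RefSeq gene table of the eel assembly fAngAng1 lists both a zar1 and a zar1l gene, but the identifiers of the deposited table match 0 entries of it, so neither model was assigned to either.

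CPEBs bind a U-rich element near the end of a message and recruit either repressors or the machinery that lengthens the tail. CPEB1, the founding member from frog oocytes, was at 6646 scaled counts in responders and 8701 in non-responders by the authors' deposited table (a log2 of -0.39, adjusted p = 1). The other 11 CPEB models were far lower, with means of 32.2 scaled counts or less. CPEB4, which takes over from CPEB1 late in meiosis in the frog, had 8.39 scaled counts in responders against 16.6 in non-responders for g23326 by the authors' deposited table (a log2 of -0.98, p = 0.171). Its model g26709 had 10.6 against 19.6 scaled counts in responders and non-responders by the authors' deposited table (a log2 of -0.89, p = 0.181). All 5 CPEB models with a mean of at least 5 lay below a ratio of 1, and none was called. With group means rescaled to equal sums, 4 of the 5 did, CPEB3 (g21076) moving to the other side.

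DAZL, a germ-cell protein that stimulates translation through PABP in mouse oocytes, was at 2555 scaled counts in responders and 2861 in non-responders by the authors' deposited table (model g17322, a log2 of -0.16, adjusted p = 1). YBX2, the germ-cell Y-box protein that coats stored mRNA in frog and mouse oocytes, had nearly equal means of 2847 scaled counts in responders and 2873 in non-responders by the authors' deposited table (model g3700, a log2 of -0.01, adjusted p = 1). The sign of the YBX2 value turned when group means were rescaled to equal sums (log2 0.10). Neither difference passed the threshold.

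Nanos and Pumilio proteins act together as repressors, and their models differed widely in level. NANOS3, needed to maintain primordial germ cells in mice and fish, had 5242 scaled counts in responders against 6563 in non-responders by the authors' deposited table (a log2 of -0.32, adjusted p = 1). NANOS1 had the highest log2 of the 61 models: g8160 stood at 590 scaled counts in responders against 360.4 in non-responders by the authors' deposited table (a log2 of 0.71, p = 0.281, adjusted p = 1). The other NANOS1 model (g6444) was at 42.2 in responders against 41.6 in non-responders by the authors' deposited table (a log2 of 0.02). Opposite signs thus occurred within the Nanos group, and none of its 3 models was called. The 4 models of PUM2 were all under 5 scaled counts and at most 584 bases long. Summed over them, PUM2 had 3.71 scaled counts in responders against 3.20 in non-responders. Another 3 models with Pumilio domains belong to C14orf21 and KIAA0020, nucleolar proteins of ribosome biogenesis. C14orf21 (g21235) had 957 scaled counts in responders against 847 in non-responders by the authors' deposited table (a log2 of 0.18). KIAA0020 model g14272 had 1345 scaled counts in responders against 1587 in non-responders by the authors' deposited table (a log2 of -0.24, adjusted p = 1), and its model g14273 had 186 against 220.5 in responders and non-responders (log2 -0.25).

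The ELAV-like proteins bind AU-rich elements and mostly stabilise messages. The ubiquitous ELAVL1 (HuR) had 245 scaled counts in responders against 289 in non-responders for g5324 by the authors' deposited table (a log2 of -0.24, adjusted p = 1). ELAVL2, known from neurons and, in mice, from oocytes, had 2 models with a mean of at least 5, at nearly the same low values. Model g32266 had 23.3 scaled counts in responders and 53.1 in non-responders by the authors' deposited table (a log2 of -1.19, p = 0.0131, adjusted p = 0.868). Model g18555 had 24.8 and 53.7 in responders and non-responders by the authors' deposited table (a log2 of -1.12, p = 0.0188, adjusted p = 0.990). The neuronal ELAVL4 was at 13.04 scaled counts in responders and 29.3 in non-responders by the authors' deposited table (model g7523, a log2 of -1.17, p = 0.0434, adjusted p = 1). These 3 models had the smallest p-values of the group, at low counts. Model g32266 is only 177 bases long, and whether the ELAVL2 models are pieces of 1 transcript was not tested. All 5 ELAV-like models with a mean of at least 5 lay below a ratio of 1, and 4 of them did with group means rescaled to equal sums.

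The 18 models of CUGBP Elav-like proteins, a separate family that is mostly neuronal and muscular, were almost silent. None of the 18 was matched to the family member CELF1, so they do not describe the whole family. Of these, 14 were listed at 0 in both groups of the authors' deposited table, and the other 4 had means of 1.29 scaled counts or less. The highest, CELF2 (g29603), had 0.761 scaled counts in responders and 2.35 in non-responders by the authors' deposited table. The ELAVL3 models resembled them, 3 of 4 being listed at 0.

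Proteins that bind the poly(A) tail were mostly at or below a ratio of 1. Of 11 cytoplasmic PABP models with a mean of at least 5, 9 lay below and 2 above, with a median log2 of -0.35, and none was called. Under equal sums 8 lay below and 3 above, with a median log2 of -0.24. Most of the 11 are described as PABP1, and whether these are pieces of the same transcript was not tested. The PABP1 model g14336, the highest of them by scaled counts, had 1879 in responders against 2545 in non-responders by the authors' deposited table (a log2 of -0.44, p = 0.175, adjusted p = 1). Per kilobase the 143-base PABP1 model g43500 was higher. It had 1857 in responders and 2646 in non-responders, where g14336 had 1240 and 1680. Shorter PABP1 models ranged more widely, between log2 -0.57 for g36514 (156 scaled counts in responders against 232 in non-responders) and log2 0.04 for g32109 (12.7 scaled counts in responders against 12.3 in non-responders) by the authors' deposited table. The highest log2 among PABPs was that of g9057, whose best match is the fruit fly protein, at 503 scaled counts in responders against 383 in non-responders by the authors' deposited table (a log2 of 0.39). The nuclear PABP2 (PABPN1), which acts when tails are first made, had log2 -0.56 for g14479 and -0.45 for g1455 in the authors' deposited table, with 777 against 1143 and 650.2 against 888 scaled counts in responders against non-responders. The nuclear form PABP2-B (g20842) had 1999 against 2172 scaled counts in responders and non-responders by the authors' deposited table (a log2 of -0.12).

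PABP-interacting proteins tune this step, PAIP1 favouring translation and PAIP2 displacing PABP from the tail. PAIP2 (g1179) had 2730 scaled counts in responders against 2239 in non-responders by the authors' deposited table (a log2 of 0.29, p = 0.431, adjusted p = 1). PAIP1 was close to equal, g19929 having 271 scaled counts in responders and 289 in non-responders by the authors' deposited table (a log2 of -0.09). Of the 4 models in this group 2 lay on each side of a ratio of 1, and all 4 lay above it with group means rescaled to equal sums.

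**Figure D2:**
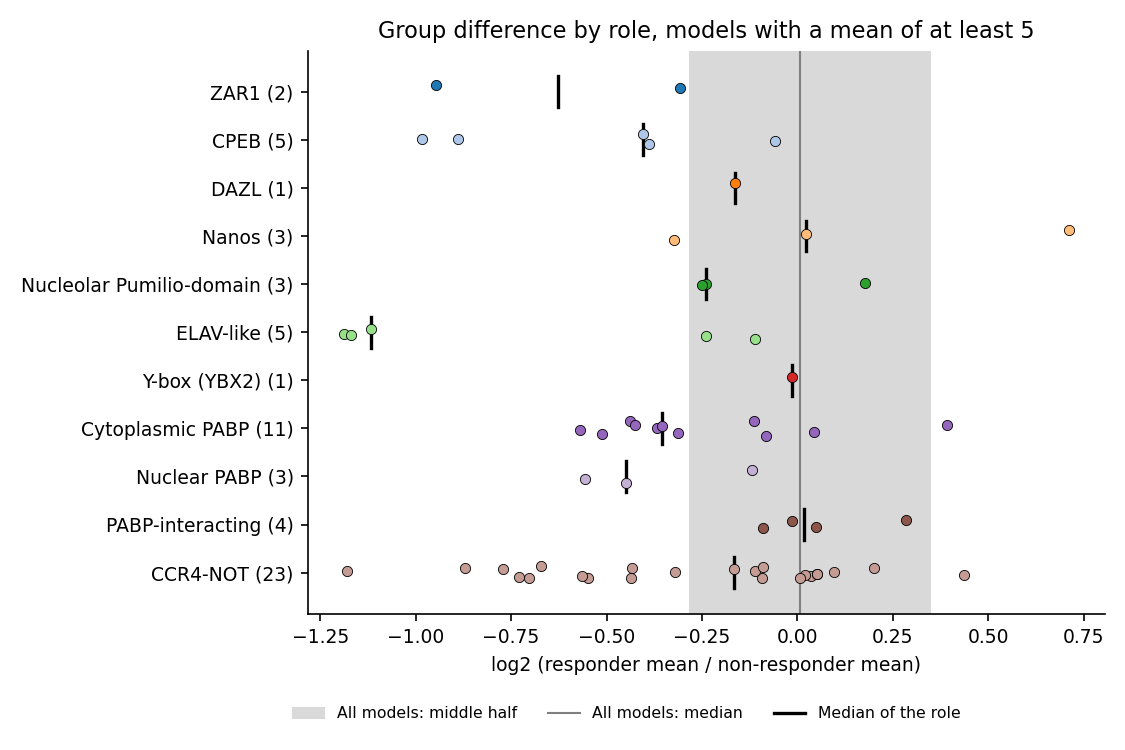
The log2 of responder over non-responder mean for each of the 61 regulators with a mean of at least 5 scaled counts, by role, with the number of models in brackets, the median of each role as a black bar, and the median (grey line) and middle 50% (grey band) of all 23266 models with that mean. Both ZAR1 models, all CPEB and ELAV-like models and 9 of 11 cytoplasmic PABP models lie left of 0, whereas CCR4-NOT models lie on both sides; no model was called.

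The CCR4-NOT complex, the main cytoplasmic deadenylase, supplied 33 models, of which 23 had a mean of at least 5. Of these, 15 lay below a ratio of 1 and 8 above, with a median log2 of -0.17, and with group means rescaled to equal sums 12 and 11 did. The catalytic subunit CNOT8 was the most abundant, with 2640 scaled counts in responders and 2576 in non-responders by the authors' deposited table (model g15522, a log2 of 0.04, adjusted p = 1). The other catalytic subunits were lower and also near a ratio of 1, CNOT7 (g18618) having log2 -0.09, CNOT6 (g13813) log2 -0.11 and CNOT6L (g3112) log2 0.10 in the authors' deposited table. CNOT3, part of the module that anchors the complex to repressors, had 5 models, 4 of them below a ratio of 1, with a summed log2 of -0.39. Of the 5, 2 had an unadjusted p under 0.05, where the background was 5.61% of all models with a mean of at least 5. Whether these 2 are pieces of the same transcript was not tested. Model g8162 was at 737 scaled counts in responders against 1199 in non-responders by the authors' deposited table (a log2 of -0.70, p = 0.0256, adjusted p = 1). Model g8161 was at 202 against 335 in responders and non-responders by the authors' deposited table (a log2 of -0.73, p = 0.0332, adjusted p = 1). Another CNOT3 model, g5525, had the opposite sign, with 597 scaled counts in responders against 441 in non-responders by the authors' deposited table (a log2 of 0.44, p = 0.197). The scaffold CNOT1 was split over 12 models of 102 to 7568 bases, which summed to 807 scaled counts in responders and 1057 in non-responders (log2 -0.39).

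Split models weigh on all of these counts, since 23 names cover more than 1 model and 42 of the 115 models are shorter than 300 bases. Duplicate genes and pieces of a transcript share a name and can divide reads between them. Summing the means under each name left 35 names with a mean of at least 5 scaled counts, of which 28 had a summed log2 below 0 and 7 above, with a median log2 of -0.24. Rescaling group means to equal sums raises every log2, and some of these names then lie above 0. They are YBX2 (-0.01 before rescaling), PAIP2B (-0.01), CNOT2 (-0.03), CPEB3 (-0.09), CNOT7 (-0.09) and ELAVL1-A (-0.11). The size of the majority below 0 thus depends on the scaling, and no share over all names was computed beside it. The models also shared annotation that the choice of descriptions did not use directly. The ontology term "regulation of translation" was attached to 31 of 104 annotated regulators (29.8%) and 0.798% of all annotated models, and "germ cell development" to 15.4% and 0.355%. These 2 terms were not the most frequent. The term "mRNA processing" was attached to 37 of 104 (35.6%, against 2.10% of all annotated models). Both "RNA splicing" (22.1% against 2.03%) and "spermatogenesis" (20.2% against 2.70%) were more frequent than "germ cell development". All of these terms come from the same protein matches as the descriptions, so they are no separate evidence about the models.

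**Figure D3:**
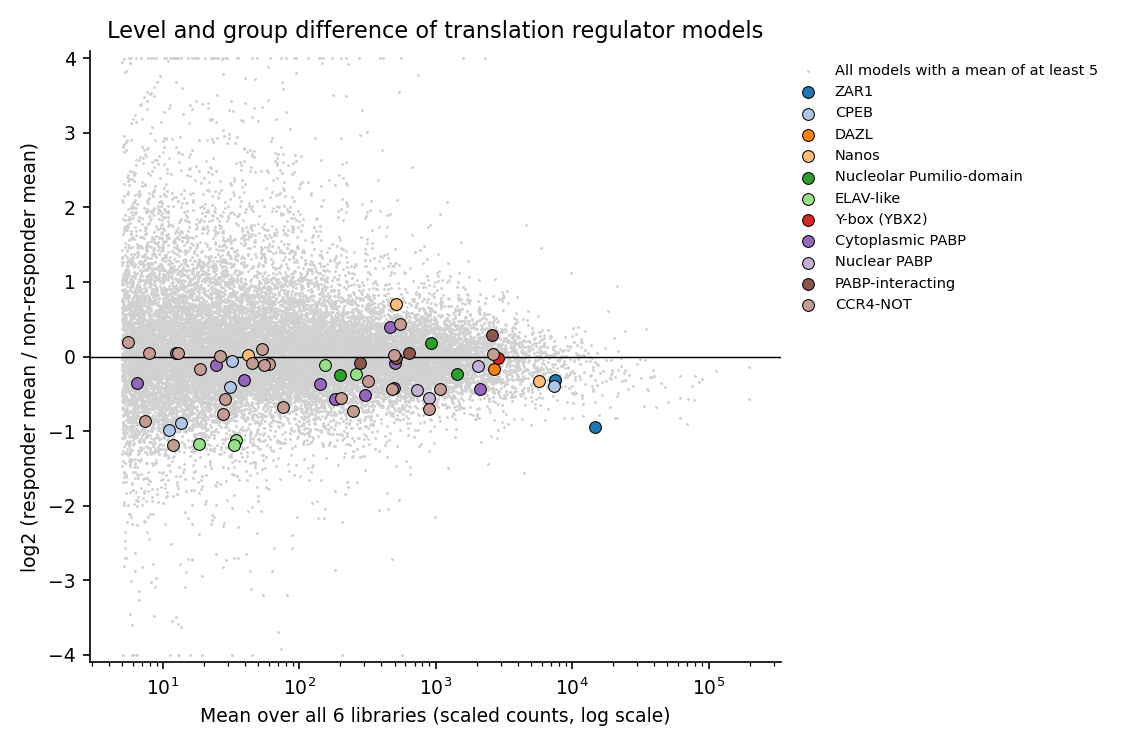
Mean over all 6 libraries (scaled counts, log axis) against the log2 of responder over non-responder mean for all models with a mean of at least 5 (grey, drawn at the edge where beyond 4 in either direction) and for the 61 regulators, coloured by role. The regulators lie within the grey cloud between log2 -1.19 and 0.71, and ZAR1 g14809, at a mean of 14713 scaled counts and log2 -0.95, is the most abundant of them.

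Most differences were small. Of the 61 models, 78.7% were within 1.5-fold, against 74.6% of all models with a mean of at least 5. A difference beyond 2-fold was seen in 6.56% of the 61 and in 10.6% of all models with that mean. These regulators were 4 models, ELAVL2 g32266 and g18555, ELAVL4 g7523 and the CNOT1 model g35976, all lower in responders and with means of 34.4 scaled counts or less. An unadjusted p under 0.05 with a lower responder mean was given to 9.84% of the 61, where the background was 2.41%, beside 3.21% with a higher mean and 5.61% in either direction. Those regulators include both ELAVL2 g32266 and g18555 and both CNOT3 g8161 and g8162. Whether models that share a name are pieces of the same transcript was not tested, so this share may count a gene more than a single time. Among the 12 regulators with a mean of at least 1000 the median log2 was -0.27, and among all 2417 models with that mean it was -0.04.

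Partners of these regulators outside the 115 were examined as a list of 113 models. The list covered eIF4E, eIF4G and 4E-T, the helicase DDX6, LSM14 and PATL proteins, musashi, staufen, bicaudal-C, TACC3 and symplekin. It also covered FMR1, FXR and IGF2BP proteins, cleavage factors, decapping enzymes, TOB and BTG proteins, the ZFP36 family and the kinases MOS, aurora A and CDK1. Of 83 with a mean of at least 5, 51 lay below a ratio of 1 and 32 above, with a median log2 of -0.10. With group means rescaled to equal sums 39 (47.0%) lay below, 44 above and the median log2 was 0.01. Under the same rescaling 38.9% of all models with that mean lay below, and their median log2 was 0.12. None was called in the DESeq comparison, where the background was 0.183%. An unadjusted p under 0.05 with the lower mean in responders was given to 6 of the 83 (7.23%), where the background was 2.41%, or 5.61% in either direction. The smallest p belonged to LSM14B, which works with ZAR1 in stored ribonucleoprotein of mouse oocytes, at 2034 scaled counts in responders against 4315 in non-responders by the authors' deposited table (model g1027, a log2 of -1.09, p = 5.3e-04, adjusted p = 0.166). PATL1, a decapping activator, had 3839 scaled counts in responders against 7260 in non-responders by the authors' deposited table (model g4011, a log2 of -0.92, p = 0.0035, adjusted p = 0.465). A CCCH zinc finger model of the ZFP36 family, best matched to fruit fly Tis11, was at 2639 against 4946 in responders and non-responders by the authors' deposited table (model g8502, a log2 of -0.91, p = 0.0124, adjusted p = 0.846). BTG2, which binds the CCR4-NOT deadenylases, was at 2424 against 4647 in responders and non-responders by the authors' deposited table (model g20058, a log2 of -0.94, p = 0.0189, adjusted p = 0.994). These 4 were named for their small p, and the largest log2 of the 83 in either direction lay above 0. It was that of musashi-2 model g22697, at 67.5 scaled counts in responders against 18.3 in non-responders by the authors' deposited table (log2 1.89). The other musashi-2 model, g22510, had log2 -0.23. Other models of the PATL and LSM14 families had smaller differences or the opposite sign, PATL1 g16588 having log2 -0.26 and LSM14A g16568 and g17024 log2 0.11 and 0.21 in the authors' deposited table. The other ZFP36 family models ran between log2 -1.20 (g25459, a mean of 11.5 scaled counts) and 0.26 (g11863). BTG1 and BTG3 models with a mean of at least 5 ran between log2 -0.26 (BTG3 g16664) and 0.06 (BTG3 g20428). Of other partners known from stored ribonucleoprotein, the helicase DDX6 summed over 6 models to 389 scaled counts in responders and 405 in non-responders, and 4E-T over 3 models to 483 in responders and 580.4 in non-responders.

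**Figure D4:**
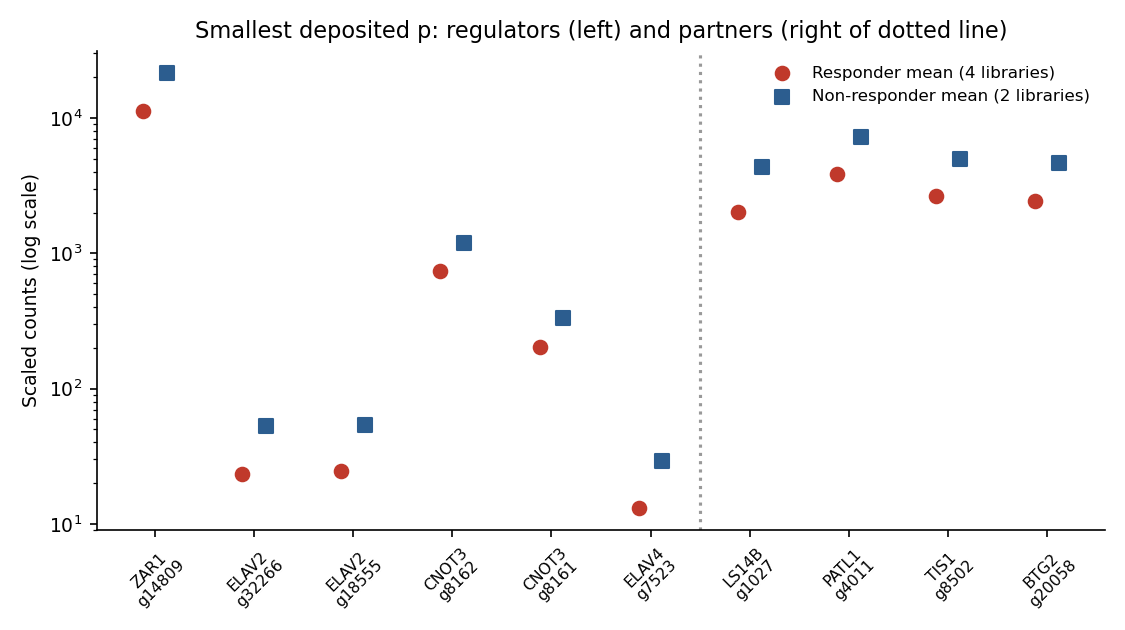
Responder means (red circles, 4 libraries) and non-responder means (blue squares, 2 libraries) in scaled counts (log axis) for the 6 regulators with an unadjusted deposited p under 0.05 (left of the dotted line) and the 4 partners with the smallest p (right of it), with no error bars. Every responder mean lies below its non-responder mean, from 11238 against 21663 for ZAR1 g14809 down to 13.04 against 29.3 for ELAVL4, and none passed the adjusted threshold.

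Markers of the cells in an ovary are given beside these values. Of 14 models of the oocyte markers ZP2, ZP3, GDF9, BMP15, NOBOX and SOX3, 13 lay below a ratio of 1 (11 with group means rescaled to equal sums), the median log2 being -0.48, with sums of 409207 scaled counts in responders against 614274 in non-responders. Most of both sums came from ZP2 (171541 in responders against 254959 in non-responders) and the 8 ZP3 models (213442 against 330868), so they say little of the other oocyte markers. GDF9 and BMP15 were near 1 (log2 0.03 and -0.09 in the authors' deposited table). The list of granulosa markers (AMH, FOXL2, CYP19A1) had 4 models with a mean of at least 5 at a median log2 of 0.11, summing over 6 models to 241 scaled counts in responders and 202 in non-responders. These 4 were split by gene. FOXL2 lay above 1 (log2 0.42 for g429 and 0.84 for g7156) and CYP19A1 below it (log2 -0.95 for g9348 and -0.20 for g9349). The AMH model had a mean under 5. All 5 CYP17A1 and COL1A1 models, for theca and stroma, lay above 1, with a median log2 of 1.13 and sums of 2804 against 1550 scaled counts in responders against non-responders. The red blood cell list (7 models) had a median log2 of -0.04 (0.07 with group means rescaled to equal sums), the white blood cell list (5 models) 0.70 and the endothelial list (4 of its 5 models with a mean of at least 5) -0.82, with summed levels over all models of 1811, 92.6 and 84.6 scaled counts in responders against 1645, 69.0 and 159 in non-responders. The red blood cell sum runs opposite to its median through 1 haemoglobin model of 144 bases, g34146, at 412.5 scaled counts in responders against 41.9 in non-responders by the authors' deposited table, and the other 6 models had the lower mean in responders (2 with group means rescaled to equal sums). Signs were also mixed in the other lists. Of the 5 white blood cell models 3 lay above 1 and 2 below, or 4 and 1 with group means rescaled to equal sums. Of the 4 endothelial models 3 lay below and 1 above. FIGLA, GSDF and STAR were looked for too, and no model carried these names. None of the markers was called, 1 oocyte and 1 endothelial model had an unadjusted p under 0.05, and none with a matching model was listed at 0. Their part in the values of the regulators was not tested, and in whole tissue fewer oocytes and less RNA per oocyte cannot be told apart.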

How the data were processed

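RNA of each ovary was isolated with a miRNeasy kit and made into an Illumina mRNA library, per the labels' protocols. The authors deposited a table of a DESeq comparison of all responders with non-responders, per the file's name. Which version, aligner, counter and genome build were used is not given in the sources used here. Base means (a signal of counts divided by size factors), the fold between conditions, and a p-value and adjusted p-value were deposited per gene model, per the file headers. Lengths in bases and a similarity to the best protein match, a fraction, were also deposited. Condition A was taken as the 2 non-responders and B as the 4 responders, since the deposited mean over all libraries equals their weighted mean within 3.5e-10 in each row. Another 6 columns, of single libraries, have headings found in no label and were left unused, so no test of counts, no SD and no fit without a library was made.

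The log2 ratio of the deposited group means was taken, and calls are those with an adjusted p under 0.05 in the table. Lists were described by counts and medians of their models at 5 scaled counts or more. All models of zar1, dazl and btg4 were to be named, with the most abundant model of each role and its 2 smallest p-values, and the 4 partners with the smallest p. The members and lists were chosen with earlier results of these data known. Models named beyond that rule, such as ELAVL4, PABP g9057, CNOT10 and most other CNOT subunits, were chosen after their values were seen. The adjustment was tested on simulated data, and the choice of models by description on a few made-up rows. Counting over the lists was not tested. Python 3.11.15, pandas 2.3.3 and matplotlib 3.10.9 were used. Sequences and coordinates were not used here. Values of 1 member gene are not reported here.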

Additional observations from a re-analysis of the deposited data

How the results depend on the processing

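The count of 0 called regulators and of 0 called partners held when the deposited p was re-adjusted across all models with a p, or across those at 5 or 20 scaled counts or more, and at an adjusted p under 0.1. With the minimum of 20, the lowest re-adjusted p was 0.174 among regulators (ZAR1 g14809) and 0.0821 among partners (LSM14B), while 90 models of the whole table were called there, against 68 as deposited. Rescaling both groups to equal sums adds 0.11 to every log2. It moved the median log2 of the regulators to -0.14, with 37 of 61 below a ratio of 1, while the median of all models moved to 0.12, and it moved that of the partners to 0.014. At a mean of at least 50, 30 of 39 regulators lay below 1, a smaller count because fewer models were counted; these counts under other settings were added after the data were seen. The median of the regulators lay between -0.31 and -0.14 over all alternatives run. The lower end came from leaving out the nucleolar Pumilio-domain and nuclear PABP models, and the upper end from equal sums. Of the 25 regulators with a mean of at least 5 that the naming rule picked, 2 changed sign under equal sums, YBX2 g3700 and PAIP1 g19929, as did CPEB3 g21076, CNOT7 g18618 and CNOT6 g13813, named beside them; of the 25, 0 did after centring on the median of models with a mean of at least 50. No paired analysis was possible because the values are group means and the labels give no pairing of animals. Fits without each animal were not run, since the values per library could not be tied to labels, so how far 1 of the 2 non-responders sets a difference is not known here.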

Other observations

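Enzymes that make or trim poly(A) tails, and the Y-box protein YBX1, lie outside the 115 models because the descriptions in the authors' deposited table lack the bracketed letter or use another name. These 9 models were chosen after the table was seen. PARN, a poly(A)-specific ribonuclease that trims maternal tails in the frog, was as abundant as CPEB1, with 6208 scaled counts in responders and 7723 in non-responders by the authors' deposited table (model g899, a log2 of -0.32, adjusted p = 1). GLD2, the cytoplasmic poly(A) polymerase that lengthens tails with CPEB1, had 348 scaled counts in responders and 299.6 in non-responders by the authors' deposited table (model g12064, a log2 of 0.22, adjusted p = 1). The canonical poly(A) polymerase alpha had 365 against 515 scaled counts in responders and non-responders for g4398 by the authors' deposited table (a log2 of -0.50, adjusted p = 1). PAN2 (g4151) and PAN3 (g1667), which start tail shortening, had log2 0.00 and -0.04 in the authors' deposited table. YBX1 had 6316 scaled counts in responders against 7312 in non-responders for g12752 by the authors' deposited table (a log2 of -0.21, adjusted p = 1). Of the 9 models, 8 lay below a ratio of 1, and 6 did with group means rescaled to equal sums; none was called.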
